A study of Mus musculus with 15 samples.

Results

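Small RNA reads from 9 annotated mouse miRNA arms were examined: miR-8103-3p, miR-6539-5p, miR-6236-5p, miR-5126-3p, miR-3473b-3p, miR-3473e-5p, miR-3470a-3p, miR-3470b-3p and miR-3470b-5p. They are arms that may be fragments of repeats or of structural RNA, and they were chosen by their read counts, for large changes in level between groups of these same libraries. An insert was counted for an arm when its first 18 bases matched the annotated hairpin exactly. The 9 arms lie on 8 hairpins and are 9 of the 1044 arms that had at least 1 read. Since the levels chose the arms, changes in level are a description: no p is given for an arm, and counts of arms past the threshold of the fit over all arms are printed beside the share of all arms and support nothing. A suspected origin in repeats or structural RNA was part of the choice too, so matches in other transcripts are likewise a description. Insert lengths and 5' ends are not named in the choice.

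The libraries fall into 5 groups of 3. TUBO exosomes were isolated from the culture supernatant of TUBO, a breast cancer line grown from tumours of Balb-NeuT mice, which carry a Neu transgene. TUBO supernatant is the fluid left over after exosomes were taken out. TUBO cells are the line itself, whose cultures gave both fractions. MM3MG-Her2 is the MM3MG line after transduction with retroviral particles of pLSXN-Neu, so that it carries Neu, the rodent counterpart of Her2. MM3MG is the line without the transduction, a mammary epithelial line called normal and taken from BALB/c mice. All cultures were grown in DMEM with 10% FCS, a serum that brings bovine RNA, and none had another treatment. The series asked which miRNAs of Her2 lines, and of the particles these lines release, regulate the progesterone receptor. The labels do not say whether replicates were separate cultures, so the spread between them may be technical.

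A miRNA is cut from a hairpin precursor by Drosha and Dicer. The product has a sharply defined 5' end, which sets the seed that pairs with target mRNAs. Its length varies little around that of a Dicer product, and its 3' end may gain uridines or adenosines that the genome does not encode. A breakdown fragment of a longer RNA need not have either end so defined. B1 and B2 elements are short interspersed repeats of rodent genomes, transcribed by RNA polymerase III and also carried inside introns and untranslated regions of very many genes. Ribosomal RNA is by far the most abundant RNA of a cell, and its fragments are found in most small RNA libraries.

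Libraries held 196152 to 710902 reads, of which 59059 to 539775 matched a named hairpin. The share of reads on hairpins was 59.3% ± 1.64 in exosomes, 30.5% ± 2.55 in supernatant, 76.5% ± 0.499 in TUBO cells, 52.3% ± 2.43 in MM3MG-Her2 and 76.9% ± 3.71 in MM3MG (SD, n = 3 each). Inserts of 20 bases or fewer were most common in supernatant, at 28.9% ± 4.70 of reads. They made up 15.9% ± 2.09 in exosomes, 10.1% ± 0.279 in TUBO cells, 16.1% ± 1.71 in MM3MG-Her2 and 10.2% ± 1.15 in MM3MG. The 5 listed epithelial miRNAs make up the miR-200 family, miR-141 among them. They summed to 19635 to 21788 CPM (the usual depth-scaled count, here over the hairpin reads of a library) in exosomes. Their sum was 7783 to 14291 CPM in supernatant and 24844 to 26081 CPM in TUBO cells. Their sum was 11.5 to 39.6 CPM in MM3MG-Her2 and 13.8 to 25.02 CPM in MM3MG, close to 0 for lines labelled epithelial. The 5 listed stromal miRNAs, among them miR-199a-3p and miR-143-3p, summed to 104474 to 108588 CPM in MM3MG-Her2 and 178583 to 192590 CPM in MM3MG, against 47671 to 47741 CPM in TUBO cells. In TUBO cells nearly all of these reads were of miR-143-3p, with 23856, 19033 and 25629. There miR-199a-3p had 22, 97 and 35 reads, miR-199a-5p 0, 3 and 0, miR-145a-5p 98, 64 and 81, and miR-214-3p none. In MM3MG miR-199a-3p had 15630, 46026 and 28981 reads, and in MM3MG-Her2 9497, 10502 and 7321. The 4 listed blood and serum miRNAs summed to 10246 to 24810 CPM in exosomes, with all 4 found, against 127 to 157 CPM in TUBO cells, where miR-451a and miR-144-3p were at 0. In supernatant their sum was 3048 to 7134 CPM, with miR-144-3p at 0 and miR-451a at 2, 0 and 0 reads. The sum was 668 to 799 CPM in MM3MG-Her2 and 1033 to 1201 CPM in MM3MG, with 2 of the 4 found in each line. These were miR-486-5p and a single read of miR-122-5p per line. In every group most reads of this list were of miR-486-5p, counted jointly with miR-3107-5p. The part of serum RNA in the exosome and supernatant values below was not tested.

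RefSeq (GRCm38.p6) gave a mature sequence for 6 of the 8 hairpins, and these are shown because the reads are set against them. Capitals mark the seed, bases 2 to 8.
miR-8103: uCUCCUGUucucuguucuccc
miR-6236: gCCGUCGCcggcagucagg
miR-5126: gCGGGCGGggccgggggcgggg
miR-3473b: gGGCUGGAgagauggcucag
miR-3473e: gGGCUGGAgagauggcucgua
miR-3470b: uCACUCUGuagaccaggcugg
The mature forms of miR-3473b and miR-3473e share the seed GGCUGGA and differ only after base 18. The other 4 seeds differ from it and from each other.

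The inserts that the libraries held for these hairpins are shown next, because their ends and their last bases carry the comparison with the mature forms. Capitals now mark bases that differ from the hairpin or lie past its end. The last base of the miR-3473b-3p insert of 18 reads lies past the end.
miR-8103-3p, 88 reads: tctcctgttctctgttctccct
miR-8103-3p, 42 reads: tctcctgttctctgttctccctT
miR-6236-5p, 51 reads: tggatggcgctggagcgtCgggCc
miR-5126-3p, 77 reads: cgcgggcggggccggggg
Mir5126, 559 reads with other first bases: CGcgcgggcggggccggggg
miR-3473b-3p and miR-3473e-5p, 320 reads: gggctggagagatggctc
miR-3473b-3p, 73 reads: aagggctggagagatggc
miR-3473b-3p, 18 reads: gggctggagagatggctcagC
miR-3473e-5p, the same 18 reads: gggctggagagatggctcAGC
miR-3470b-3p, 61 reads: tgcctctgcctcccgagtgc
miR-3470b-5p, 126 reads: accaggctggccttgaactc
miR-3470b-5p, 19 reads: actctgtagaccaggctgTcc
The insert of miR-8103-3p begins at the first base of its mature form, whereas the insert of miR-6236-5p begins at base 35 of the hairpin and its mature form at base 67.

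In GENCODE M21 on GRCm38, Mir8103 (chr11:97063768-97063874, plus strand) lies in an intron of Osbpl7 on the same strand, and Mir6539 (chr14:67859636-67859745, minus strand) lies in an intron of Dock5 on the same strand. Mir6236 (chr9:110281287-110281409, plus strand) is intergenic. Mir5126 (chr1:84695839-84695915, plus strand) overlaps an exon of Dner, a gene on the opposite strand. Mir3473b (chr10:41670739-41670793, plus strand) lies in an intron of Ccdc162 on the opposite strand. Mir3473e (chr5:31667231-31667340, minus strand) lies in an intron of Rbks on the same strand and of the non-coding Gm43809 on the opposite strand. Mir3470a (chr6:83090311-83090387, minus strand) is intergenic, and Mir3470b (chr16:44013852-44013977, plus strand) lies in an intron of Gramd1c on the opposite strand.

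Read structure separated the arms. It was set beside 307 other arms with at least 100 reads, each measured over all 15 libraries pooled. These arms were taken before any were joined. Hairpins with the same product, such as those of miR-9, thus enter separately with mostly the same reads. In the median other arm 97.2% of reads began at the most common start, 85.2% had 21 to 23 bases, 0.182% had 18 bases, and bases 19 to 21 matched the hairpin in 99.0% of the reads that had them. For 198 of the 307 no read had its first 18 bases in another annotated gene, and 6 had more than 10 other genes per read. A set of 10 miRNAs with long-standing support, among them miR-21a-5p and miR-16-5p, had 97.2% to 99.8% of reads at the most common start and at most 0.701% of inserts of 18 bases. The other 2 measures varied widely in this set. Inserts of 21 to 23 bases made up 31.4% to 96.9%, and bases 19 to 21 matched in 26.1% to 99.6%. The lowest match was that of let-7a-5p, which shared reads with let-7c-5p.

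**Figure D1:**
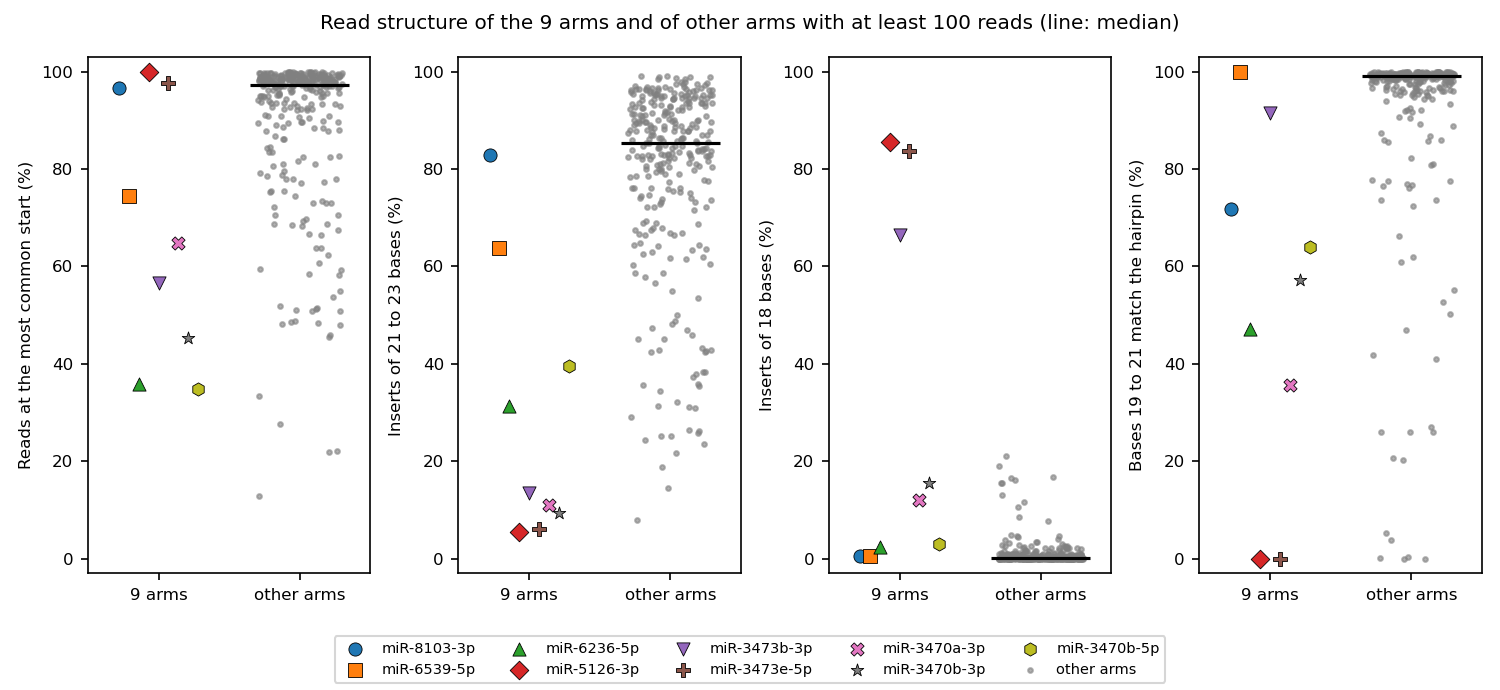
Each panel plots a share of reads in percent for the 9 arms (coloured symbols, left) and for the 307 other arms with at least 100 reads (grey points, right, with a line at the median; 306 arms in the last panel), all libraries pooled. miR-5126-3p, miR-3473b-3p and miR-3473e-5p stand above all other arms in the share of 18-base inserts, while miR-8103-3p lies near the median in the first 3 panels.

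The arms had been named as doubtful miRNAs from repeats or ribosomal RNA, and their matches differed. The first 18 bases at the most common start were found in many other genes for 5 of the arms. On the sense strand these were 402 genes for miR-3473b-3p and miR-3473e-5p alike, 203 for miR-3470a-3p, 335 for miR-3470b-3p and 324 for miR-3470b-5p. For miR-8103-3p, miR-6539-5p, miR-6236-5p and miR-5126-3p no other gene held them on the sense strand. Only annotated transcripts were searched, and they hold no 45S ribosomal precursor, so a ribosomal match was not analysed here.

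miR-8103-3p was highest in supernatant, and in 5' ends and insert length it lay within the middle of the range of other arms. It had 25, 9 and 15 reads in exosomes, 51, 42 and 72 in supernatant, 19, 26 and 27 in TUBO cells, 4, 1 and 0 in MM3MG-Her2 and 0, 2 and 4 in MM3MG. In CPM that is 773 ± 141 CPM in supernatant and 50.8 ± 13.5 CPM in TUBO cells (SD, n = 3 each), a log2 change of 4.17 ± 0.35 (SE) for supernatant against cells. With all reads of a library as its size the change was 2.60. Exosomes had 52.5 ± 17.05 CPM, overlapping TUBO cells. TUBO cells stood above MM3MG (5.02 ± 5.64 CPM) and MM3MG-Her2 (7.01 ± 9.03 CPM), with log2 changes of 3.01 ± 0.56 against MM3MG and 3.04 ± 0.59 against MM3MG-Her2 and no overlap in either case. The 2 MM3MG lines overlapped each other.

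Of its 297 reads, 287 began at the first base of the RefSeq mature form, 96.6%, and 137 of the other arms were less uniform. Inserts of 21 to 23 bases made up 82.8%. Among longer inserts 146 matched the hairpin throughout and 146 differed from it after base 19. The leading inserts with a difference, of 44, 42, 19 and 13 reads, each had a T that the hairpin lacks near the end, as in the second sequence shown above. Bases 19 to 21 matched in 71.8% of reads, lower than in 285 of 306 other arms. Neither the first 18 bases nor any whole insert was found in another transcript on the sense strand.

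miR-6539-5p was highest in MM3MG-Her2 and nearly absent from TUBO exosomes and supernatant. It had no read in any exosome library, 0, 1 and 0 reads in supernatant, 32, 40 and 49 in TUBO cells, 90, 109 and 60 in MM3MG-Her2, and 5, 10 and 4 in MM3MG. The cell groups did not overlap, with 84.6 ± 18.7 CPM in TUBO cells, 381 ± 38.8 CPM in MM3MG-Her2 and 15.8 ± 4.36 CPM in MM3MG. The log2 changes were 3.97 ± 0.27 for MM3MG-Her2 against MM3MG, 2.15 ± 0.31 for TUBO cells against MM3MG and -1.82 ± 0.20 for TUBO cells against MM3MG-Her2. Against the 121 reads of TUBO cells, exosomes were at least 25.1-fold lower, taking 3 reads over the group as the floor. Supernatant had 0.0563 of the level in TUBO cells, with a 95% counting interval of 0.00141 to 0.320. Such intervals and floors cover counting error alone, as amplified reads with no molecular identifier cannot be taken as separate molecules.

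Of its 400 reads, 74.5% began at base 24 of the hairpin and 99.5% within 1 base of it. All 308 reads long enough to test matched the hairpin at bases 19 to 21, and 387 longer inserts matched it throughout. The share at base 24 was 86.9% ± 1.03 in TUBO cells against 69.9% ± 6.67 in MM3MG-Her2 (exact two-sided permutation test p = 0.1, adjusted p = 0.171 over 12 tests). Mean insert length was 21.9 ± 0.116 bases in TUBO cells and 21.1 ± 0.145 bases in MM3MG-Her2, with the same p. Groups of 3 cannot give a p under 0.1 in this test. The libraries of the 2 lines did not overlap in either measure.

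miR-6236-5p was present in all 15 libraries, but no read began at its mature form. It had 35, 33 and 31 reads in exosomes, 24, 15 and 20 in supernatant, 22, 25 and 39 in TUBO cells, 66, 49 and 30 in MM3MG-Her2 and 11, 12 and 11 in MM3MG. In CPM the order was supernatant (277 ± 34.8), MM3MG-Her2 (214 ± 61.4), exosomes (112 ± 18.9), TUBO cells (59.4 ± 14.5) and MM3MG (30.2 ± 6.303), and of neighbours in that order only supernatant and MM3MG-Her2 overlapped. MM3MG-Her2 exceeded MM3MG by a log2 change of 2.30 ± 0.30. Supernatant exceeded TUBO cells by 2.42 ± 0.32 when scaled to hairpin reads and by 0.90 when scaled to all reads. Exosomes against supernatant had a log2 change of -1.63 ± 0.32 by the first scale and of -0.36 by the second.

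Its 423 reads began at 34 positions, and the most common, base 35, held 35.9%, less than in 302 of 307 other arms. The RefSeq mature form begins at base 67, where no read began. At base 35 the inserts followed the hairpin for 18 bases and then left it: of all reads longer than 18 bases 153 already differed at base 19, and the leading insert, shown above, ended in CgggCc. In MM3MG-Her2 the starts were spread differently, with 27 of 145 reads at base 8 and 26 at base 35. Base 35 held 18.8% ± 3.95 of the reads of MM3MG-Her2 libraries, 34.4% ± 6.50 in TUBO cells and 51.3% ± 9.34 in exosomes. TUBO cells against MM3MG-Her2 and exosomes against TUBO cells each gave an exact permutation p of 0.1, adjusted 0.171, with no overlap of libraries. Base 8 held 1 read in exosomes, 1 in supernatant, 3 in TUBO cells and 1 in MM3MG.

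**Figure D2:**
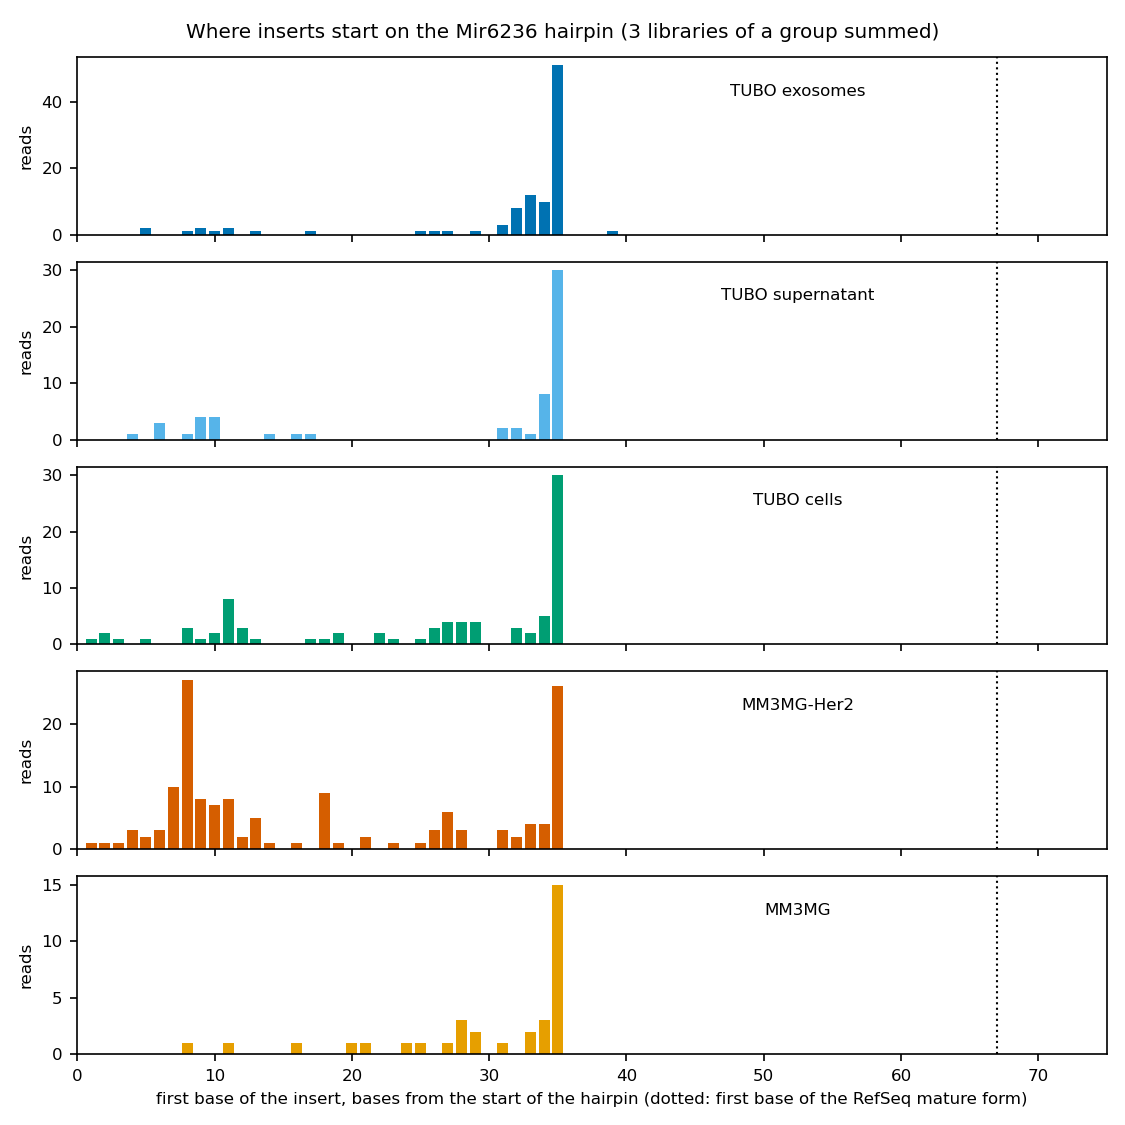
Reads (vertical axis, 3 libraries of a group summed, with its own scale in each panel) by the first base of the insert along the Mir6236 hairpin, in bases from its start; the dotted line marks the first base of the RefSeq mature form. Reads collect at base 35 in all 5 groups and at base 8 in MM3MG-Her2, and none begin at base 67.

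Most reads of miR-5126-3p were from MM3MG-Her2. It had 0, 2 and 0 reads in exosomes, 0, 5 and 3 in supernatant, none in TUBO cells, 24, 16 and 38 in MM3MG-Her2, and 1, 1 and 0 in MM3MG. The level in MM3MG-Her2 was 127 ± 79.6 CPM against 1.76 ± 1.66 CPM in MM3MG, and the ratio of pooled CPM was 68.0 with a 95% counting interval of 18.2 to 571. TUBO cells were at least 56.01-fold lower than MM3MG-Her2. Supernatant, with fewer hairpin reads per library, had 41.2 ± 42.4 CPM. Its replicate 2, at 84.7 CPM, was the only library of another group above the lowest MM3MG-Her2 library, at 61.2 CPM.

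All 90 reads began at base 51, 1 base before the mature form, and 85.6% had 18 bases, a share above that of every other arm set beside it. This arm has fewer than the 100 reads asked of those arms. Of the 7 reads that reached base 21 none matched the hairpin at bases 19 to 21, and 12 of the 13 longer than 18 bases differed at base 19. A further 760 reads held 18 bases of the hairpin behind other first bases and so were not counted for the arm. They numbered 2, 1 and 1 in exosomes, 12, 12 and 3 in supernatant, 12, 7 and 14 in TUBO cells, 265, 223 and 200 in MM3MG-Her2, and 4, 3 and 1 in MM3MG. The leading one, with the 559 reads shown above, had 515 of them in MM3MG-Her2. TUBO cells held no read counted for the arm and 33 reads that carry its bases further in.

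**Figure D3:**
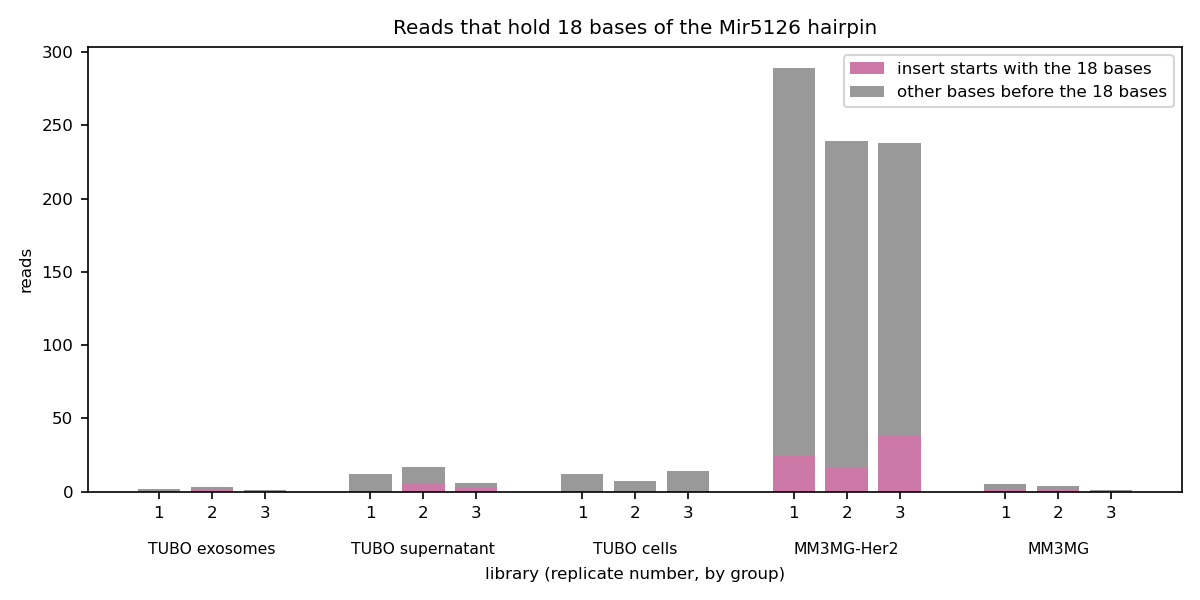
Reads in each of the 15 libraries that hold 18 bases of the Mir5126 hairpin, stacked as inserts that start with these bases (pink) and inserts with other bases before them (grey). In MM3MG-Her2 the grey part is 265, 223 and 200 reads against 24, 16 and 38 in the pink part.

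Over all libraries miR-3473b-3p and miR-3473e-5p were mostly counted from the same reads, and both were highest in supernatant. They shared 379 reads, 56.6% of those of miR-3473b-3p and 97.7% of those of miR-3473e-5p, and were fitted as 1 joint feature. The joint reads were 15, 10 and 15 in exosomes, 120, 186 and 132 in supernatant, 13, 12 and 7 in TUBO cells, 25, 54 and 51 in MM3MG-Her2, and 17, 11 and 11 in MM3MG. Supernatant had 2148 ± 869 CPM against 22.9 ± 8.82 CPM in TUBO cells, a log2 change of 6.73 ± 0.34, or 5.22 when scaled to all reads. The arms differed there, as 162 of the 438 joint reads in supernatant were shared. Counted alone, miR-3473b-3p had 2125 ± 874 CPM in supernatant and 22.3 ± 9.86 CPM in TUBO cells. For miR-3473e-5p the levels were 834 ± 524 and 18.4 ± 4.88 CPM. Exosomes, at 44.5 ± 5.36 CPM, had a log2 change of -5.86 ± 0.33 against supernatant. MM3MG-Her2 had 201 ± 90.8 CPM against 36.1 ± 17.8 CPM in MM3MG, a change of 1.95 ± 0.39 with no overlap, and TUBO cells had a change of -2.76 ± 0.40 against MM3MG-Her2.

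Inserts of 18 bases made up 66.4% of miR-3473b-3p and 83.8% of miR-3473e-5p, above every one of the 307 other arms. At base 19 the 2 hairpins part, and the longer reads can be read there. Of 27 reads of miR-3473e-5p that reached base 21 none matched its hairpin at bases 19 to 21. Of 83 reads of miR-3473b-3p, 91.6% matched. These 83 are other reads, which all began before base 36. The Mir3473b hairpin ends at base 55, so reads that began at base 36, the shared ones, could not be tested against it at base 21. At base 19 they could be read. Shared inserts of 26 reads, with 19 bases, and of 18 reads, shown above, matched the Mir3473b hairpin there and differed from Mir3473e. Of the longer reads of miR-3473e-5p 57 differed from its hairpin at base 19. The first 18 bases lay in 402 other genes in sense and 438 in antisense orientation, and with 20 bases those of the Mir3473b hairpin still lay in 344 while those of the Mir3473e hairpin lay in 0.

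The starts of miR-3473b-3p inserts were shifted in supernatant. This was not tested, as each of the 6 comparisons held a library with fewer than 20 reads of the arm. Base 36, where the mature form begins, held 79.5% of the reads in exosomes, 37.4% in supernatant, 80.6% in TUBO cells, 96.9% in MM3MG-Her2 and 94.9% in MM3MG. The insert of 73 reads that begins at base 34, shown above, was found in supernatant alone, and of 66 reads of the insert that begins 1 base later 63 were from supernatant. Reads that held 18 bases of the Mir3473b hairpin behind other first bases numbered 18 in exosomes, 444 in supernatant, 47 in TUBO cells, 32 in MM3MG-Her2 and 11 in MM3MG. The most common of them had 1 more G in front of the insert of 320 reads, with 88 reads of which 72 were from supernatant.

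**Figure D4:**
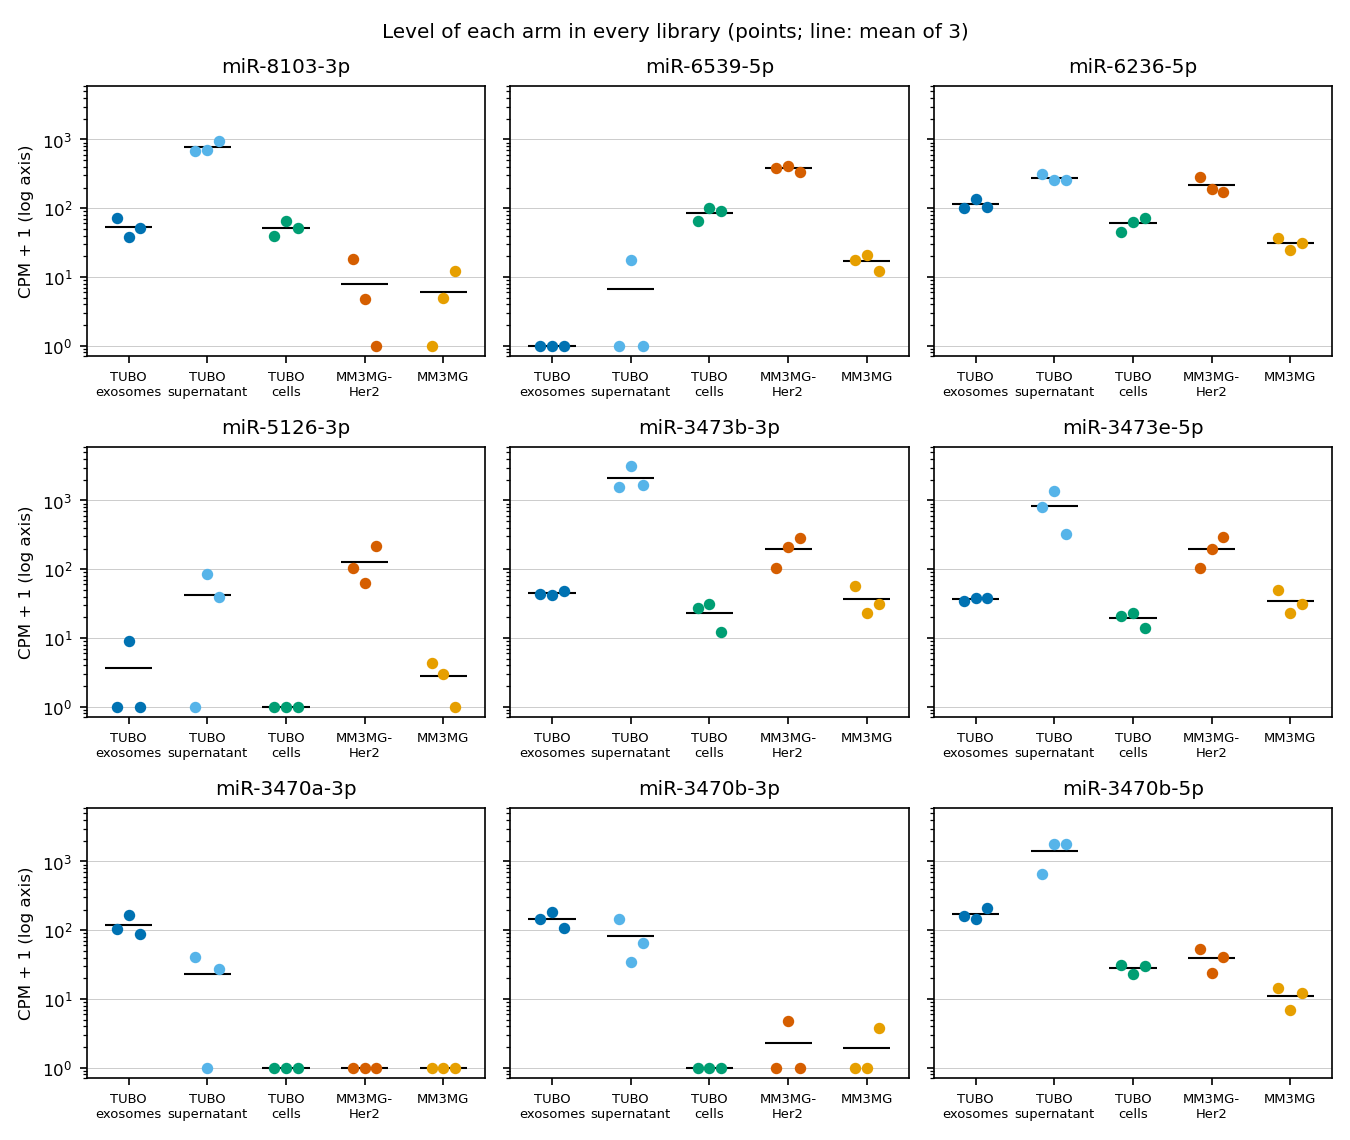
Level of each of the 9 arms in every library, as CPM + 1 on a log axis; points are libraries and the line is the mean of the 3 libraries of a group. miR-8103-3p, miR-3473b-3p, miR-3473e-5p and miR-3470b-5p are highest in supernatant, miR-6539-5p and miR-5126-3p in MM3MG-Her2, and miR-3470a-3p is above 0 in exosomes and supernatant only.

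miR-3470a-3p and miR-3470b-3p had reads in TUBO exosomes and supernatant and none in the TUBO cells themselves. miR-3470a-3p had 36, 41 and 26 reads in exosomes and 3, 0 and 2 in supernatant, and no read in any of the 9 libraries of TUBO cells, MM3MG-Her2 and MM3MG. Exosomes had 119 ± 42.0 CPM, at least 55.3-fold above TUBO cells, and stood above supernatant (21.8 ± 20.1 CPM) by a log2 change of 1.98 ± 0.66. Supernatant, with 5 reads in all, was 11.4-fold above the floor of 3 reads in TUBO cells. The groups overlapped, as 1 supernatant library was at 0. miR-3470b-3p had 51, 45 and 32 reads in exosomes, 11, 2 and 5 in supernatant, 0, 0 and 0 in TUBO cells, 0, 1 and 0 in MM3MG-Her2 and 0, 0 and 1 in MM3MG. Exosomes had 145 ± 37.3 CPM, at least 68.7-fold above TUBO cells. Supernatant had 81.3 ± 57.4 CPM, at least 40.9-fold above TUBO cells, and overlapped exosomes.

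The other arm of the same hairpin, miR-3470b-5p, was highest in supernatant and was present in all libraries. It had 57, 36 and 62 reads in exosomes, 50, 107 and 140 in supernatant, 15, 9 and 16 in TUBO cells, 12, 6 and 7 in MM3MG-Her2, and 4, 3 and 4 in MM3MG. Supernatant had 1429 ± 666 CPM against 27.3 ± 4.25 CPM in TUBO cells, a log2 change of 5.92 ± 0.45, or 4.32 when scaled to all reads. Exosomes had 172 ± 33.0 CPM, with a log2 change of 2.53 ± 0.45 against TUBO cells and of -3.39 ± 0.39 against supernatant (-2.05 when scaled to all reads). MM3MG-Her2 had 38.1 ± 14.4 CPM against 10.1 ± 3.75 CPM in MM3MG, a change of 1.39 ± 0.50 with no overlap. TUBO cells exceeded MM3MG by 1.31 ± 0.47 and overlapped MM3MG-Her2.

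The arms of Mir3470b took different shares in exosomes and supernatant. The 3p arm held 47.2%, 55.6% and 34.0% of Mir3470b reads in exosomes, 18.03%, 1.83% and 3.45% in supernatant, and 0% in each library of TUBO cells. The 5' ends differed as well. On the 5p side, base 45 held 30, 63 and 86 reads in supernatant, 60.1% ± 1.28 of that arm, and no read in exosomes (exact two-sided permutation test p = 0.1, adjusted p = 0.171). Inserts of 21 to 23 bases made up 66.1% ± 16.3 of the arm in exosomes and 25.3% ± 5.88 in supernatant, and mean length was 22.4 ± 0.715 against 20.6 ± 0.141 bases, each with the same p and no overlap. On the 3p side, base 76 held 64 reads in exosomes, 3 in supernatant and 0 in the 9 libraries of cells. The mature form begins at base 34, where 18 of the 528 reads of the 5p arm began.

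**Figure D5:**
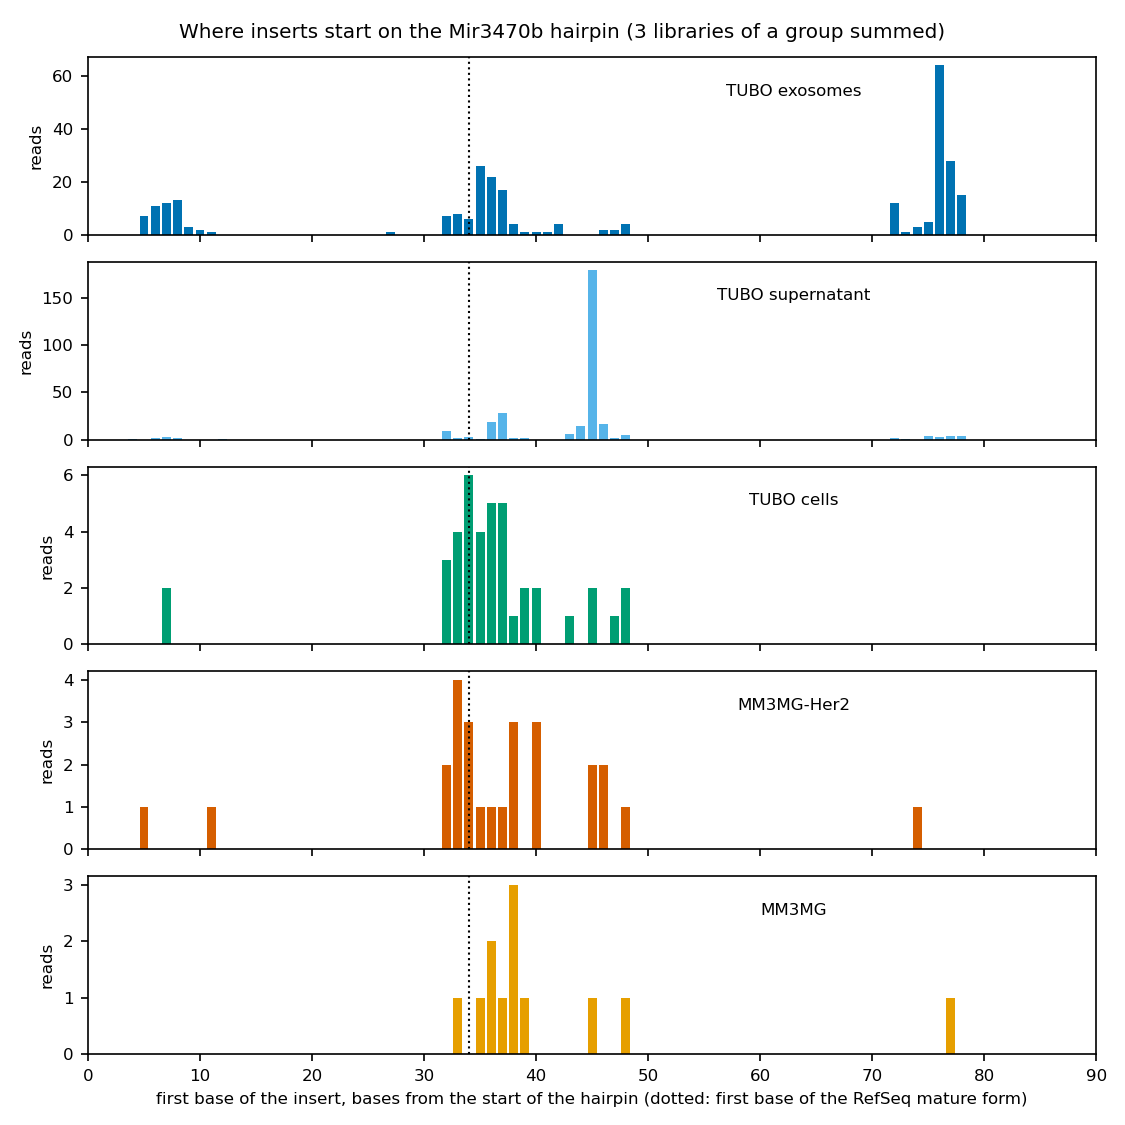
Reads (vertical axis, 3 libraries of a group summed, with its own scale in each panel) by the first base of the insert along the Mir3470b hairpin, in bases from its start; the dotted line marks the first base of the RefSeq mature form. Exosome reads gather near bases 8, 35 and 76 and supernatant reads at base 45, where exosomes have none.

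Over all libraries the most common start held 64.8% of miR-3470a-3p reads, 45.3% of miR-3470b-3p reads and 34.8% of miR-3470b-5p reads, and the last of these began at 27 positions. Bases 19 to 21 matched the hairpin in 5 of 14 reads of miR-3470a-3p, 16 of 28 of miR-3470b-3p and 176 of 275 of miR-3470b-5p. The first 18 bases of a read were found on average in 196 other genes for miR-3470a-3p, 322 for miR-3470b-3p and 445 for miR-3470b-5p. The whole insert lay in another gene on the sense strand for 97.2% of miR-3470a-3p reads, 98.0% of miR-3470b-3p reads and 96.2% of miR-3470b-5p reads. Of the genes that held the start of miR-3470b-5p inserts 122 were protein coding, and 141 of the 387 transcripts were retained introns. Reads on the opposite strand were found for both hairpins: 12 beside 162 sense reads for Mir3470a (6.90% of both, exact 95% interval 3.61% to 11.7%) and 17 beside 676 for Mir3470b (2.45%, 1.44% to 3.90%). Mir3473b had 6, with 6 stretches of its hairpin present on both strands, and Mir6236 had 2. Mir3473e, Mir5126, Mir6539 and Mir8103 had none, which leaves upper exact limits of 0.946% for Mir3473e, 4.02% for Mir5126, 0.918% for Mir6539 and 1.23% for Mir8103.

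The 9 arms made 8 features in the fits over all arms, and these counts use the contrasts that chose the arms, so nothing is read from them. For MM3MG-Her2 against MM3MG, 6 features passed the filter on low counts, and 5 of them were called higher and 0 lower at an adjusted p of 0.05 in edgeR's quasi-likelihood test. Of all 279 arms tested there 17.6% were called higher and 45.9% lower, or 49 and 128 arms. This split rested on single libraries: it was 86 and 89 arms without MM3MG-Her2 replicate 3, and 82 and 105 without MM3MG replicate 1. For TUBO cells against MM3MG 4 of 6 were higher and 0 lower (34.8% and 46.2% of all arms), and for TUBO cells against MM3MG-Her2 1 was higher and 4 lower (35.5% and 40.1%). For exosomes against TUBO cells 4 of 7 were higher and 1 lower (19.8% and 29.8% of 242 arms). Leaving out any 1 library of exosomes or TUBO cells brought the arms called lower there to between 28 and 47, in place of 72. For exosomes against supernatant 1 was higher and 4 lower (33.1% and 31%), and for supernatant against TUBO cells 6 were higher and 1 lower (34.7% and 38%). For TUBO cells against MM3MG 2 were higher without MM3MG replicate 2, and 3 without any 1 library of TUBO cells. Without replicate 1 or 2 of TUBO cells the joint miR-3473 feature was called lower. Counted by libraries that do not overlap, 5 features were higher and 0 lower for MM3MG-Her2 against MM3MG (33.3% and 33% of all arms), 4 and 0 for TUBO cells against MM3MG (39.1% and 44.1%), and 1 and 4 for TUBO cells against MM3MG-Her2 (31.9% and 48.4%). The same count was 5 higher and 1 lower for exosomes against TUBO cells (26.4% and 38%), 1 and 4 for exosomes against supernatant (39.3% and 26.9%), and 5 and 1 for supernatant against TUBO cells (30.2% and 43.8%). miR-3470a-3p and miR-3470b-3p fell out by the filter among cell lines, and miR-5126-3p among TUBO libraries. Comparisons within a fit share libraries, so they are not independent of each other.

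The median log2 change of the tested features was 2.13 for MM3MG-Her2 against MM3MG, beside -0.44 over all arms. It was 1.06 for TUBO cells against MM3MG (-0.29 over all arms) and -1.66 for TUBO cells against MM3MG-Her2 (-0.04 over all arms). For the TUBO fractions it was 0.88 for exosomes against TUBO cells (-0.27 over all arms), -3.39 for exosomes against supernatant (0.20 over all arms) and 5.92 for supernatant against TUBO cells (-0.06 over all arms). The sets that passed the filter are not all 9 arms, and features with a group at 0 carry a fitted change that is no bound.

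Other mouse miRNAs often listed as possible fragments of repeats, ribosomal RNA, tRNA or snoRNA were set beside the 9 arms, as 44 names. Of these, 31 arms had reads and at most 6 reached a fit. For MM3MG-Her2 against MM3MG 3 of 6 rose and 3 fell, for TUBO cells against MM3MG 0 rose and 4 fell, and for TUBO cells against MM3MG-Her2 3 rose and 3 fell. For exosomes against TUBO cells 2 of 5 rose and 1 fell, for exosomes against supernatant 2 rose and 0 fell, and for supernatant against TUBO cells 0 rose and 2 fell. miR-6240-3p had 545 ± 71.8 CPM in MM3MG-Her2 against 140 ± 16.4 CPM in MM3MG, and 388 ± 36.5 CPM in exosomes against 134 ± 18.5 CPM in TUBO cells. In supernatant it had 151 ± 20.9 CPM, not above TUBO cells by the test (log2 change 0.38 ± 0.30). miR-5099-3p had 9.35 ± 6.48 CPM in exosomes against 61.8 ± 6.02 CPM in TUBO cells, and 233 ± 31.5 CPM in MM3MG-Her2 against 88.3 ± 22.6 CPM in MM3MG. In supernatant it had 0 reads. miR-664-5p was called lower in MM3MG-Her2 than in MM3MG, with 29.3 ± 16.0 CPM in MM3MG-Her2 and 93.4 ± 14.3 CPM in MM3MG. The listed arm with the most reads, miR-1839-5p, was called lower there too, with 202 ± 40.4 CPM against 475 ± 23.5 CPM. It was also called lower in supernatant (178 ± 113 CPM) than in TUBO cells (413 ± 14.6 CPM).

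Among 158 arms with at least 500 reads, miR-99b-5p correlated best with the joint miR-3473 feature over the 15 libraries (Pearson r = 0.943 of log2(CPM + 1)), and miR-25-3p with miR-3470b-5p (r = 0.977). Such a correlation does not compare the size of the changes. These are descriptions, and the libraries share their group and depth. Both named miRNAs were highest in supernatant, with 18795 ± 3091 CPM for miR-99b-5p and 95156 ± 29023 CPM for miR-25-3p.

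Over all members and comparisons, 4 of 54 pairs had at least 20 reads in every library and could be tested for read structure, which made 12 tests. The pairs were miR-6539-5p and miR-6236-5p for TUBO cells against MM3MG-Her2, miR-6236-5p for exosomes against TUBO cells, and miR-3470b-5p for exosomes against supernatant. The smallest exact p was 0.1 and the smallest adjusted p 0.171, and groups of 3 allow none below 0.1.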

How the data were processed

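The 15 mouse small RNA libraries make 5 groups of 3. Per the labels' protocols, RNA was isolated with TRIzol, adapters were ligated to both ends, the product was amplified by PCR and bands of miRNA inserts were cut from a gel. The authors deposited counts: each distinct insert with its number of reads, of 18 to 75 bases. No trimming tool, aligner or genome build of the study is given in the sources used here. No molecular identifiers are named.

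Inserts were counted where their first 18 bases matched 1 of 1174 named hairpins of GENCODE M21 (GRCm38) exactly. The arm was set by the loop that RNAfold 2.7.2 placed, and arms with 50% or more of their reads in common were joined, which gave 889 features. CPM are over hairpin reads. Counts were compared with edgeR 4.0.16 in R 4.3.3 (TMM, filterByExpr, robust quasi-likelihood fit, Benjamini-Hochberg adjustment, threshold 0.05), in 1 fit of the 9 cell libraries and 1 of the 9 TUBO libraries, without a replicate block. The fit was tested on simulated data. DESeq2 1.42.0, RLE scaling, no filter, inserts of 18 to 26 bases, all reads as library size, leaving out each library and a replicate block were alternatives; inserts of 20 bases or more were added after insert lengths had been seen.

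The match of bases 19 to 21 was added after inserts had been seen. Matches elsewhere had been planned over the genome and were searched in 141767 transcripts instead, and reads of those transcripts outside the shared stretch were not computed. Shares were compared with exact permutation tests in SciPy 1.17.1. The arms and lists were chosen with earlier results of these data known. All 9 arms are named, and the arm most alike was named for members with at least 500 reads.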

Additional observations from a re-analysis of the deposited data

Results flagged for a closer look

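Reads outside the counting rule carried bases of all 8 hairpins. Inserts that held 18 bases of a hairpin behind other first bases numbered 760 for Mir5126, 635 for Mir3473e, 552 for Mir3473b, 251 for Mir3470b, 155 for Mir3470a, 18 for Mir6236, 4 for Mir6539 and 4 for Mir8103. The Mir3473b and Mir3473e counts overlap: the leading insert, of 88 reads, is in both. For Mir5126 these reads outnumbered the 90 counted ones, and 688 of them were from MM3MG-Her2. For Mir3473e 533 were from supernatant, and for Mir3470a 89 were from exosomes, 37 from supernatant and 16 from TUBO cells. Counted reads of that hairpin in TUBO cells were 0 for the 3p arm and 3, 4 and 4 for miR-3470a-5p, an arm with reads in all 15 libraries.

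Reads on the strand opposite to the hairpin numbered 12 for Mir3470a, 17 for Mir3470b and 6 for Mir3473b. Of the 12, 8 were from exosomes, and of the 17, 10 were from exosomes and 6 from supernatant. These reads were in data that no comparison used, and which of the many matching transcripts they came from was not tested.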

How the results depend on the processing

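Among the 39 changes of members, none that had been called reversed its sign. Of 498 combinations of change and alternative 43 moved by more than 1 SD. Changes not called could not count as reversed, and some did switch sign with 1 library left out. For miR-8103-3p, MM3MG-Her2 against MM3MG ran from -1.58 to 0.98. For miR-3470b-5p, TUBO cells against MM3MG-Her2 ran from -0.79 to 0.24. Restricting inserts to 20 bases or more left 2 member features called for MM3MG-Her2 against MM3MG (5 before), 2 for TUBO cells against MM3MG (4 before) and 3 for TUBO cells against MM3MG-Her2 (5 before): miR-5126-3p, the joint miR-3473 feature and miR-3470b-5p then failed the filter in the cell lines, and miR-6236-5p, still in the fit, was no longer called for TUBO cells against MM3MG (0.60 on the log2 scale). Leaving out 1 library at a time gave 2 to 4 member features called for TUBO cells against MM3MG, with 2 only without MM3MG replicate 2 (miR-6236-5p and miR-3470b-5p not called). For MM3MG-Her2 against MM3MG miR-3470b-5p was not called without MM3MG-Her2 replicate 1 or MM3MG replicate 2. It gave 78 to 99 arms called for exosomes against TUBO cells (120 with all), the 78 without exosome replicate 1 or 2. Same-number libraries did not deviate together (correlations -0.152 to 0.126). With the replicate block 170 arms were called for MM3MG-Her2 against MM3MG (177 without it), 224 for TUBO cells against MM3MG (226), 207 for TUBO cells against MM3MG-Her2 (211), 118 for exosomes against TUBO cells (120), 153 for exosomes against supernatant (155) and 175 for supernatant against TUBO cells (176); member calls changed for exosomes against TUBO cells alone, 4 in place of 5, where miR-6236-5p was not called; nor was it there with no filter, with inserts of 18 to 26 bases, with all reads as library size or without TUBO cells replicate 1. The split of calls moved with scaling: with all reads as library size 141 arms were higher and 32 lower for exosomes against supernatant (80 and 75 before), and 36 higher and 150 lower for supernatant against TUBO cells (84 and 92 before). It also gave 34 higher and 105 lower for exosomes against TUBO cells (48 and 72 before) and 114 and 91 for TUBO cells against MM3MG-Her2 (99 and 112 before). For exosomes against supernatant miR-6236-5p was then no longer called lower and miR-3470b-3p was called higher, at 1.71 on the log2 scale. RLE scaling gave 72 higher and 97 lower for MM3MG-Her2 against MM3MG (49 and 128 before), with a median of -0.09 over all arms in place of -0.44; DESeq2 gave 69 and 97. With 20 bases in place of 18, 0 other genes held the start of miR-3473e-5p (402 before). Counting inserts of 20 to 24 in place of 21 to 23 bases gave 75.9% for miR-3470a-3p (11.1% before), 60.8% for miR-3470b-3p (9.46%), 78.6% for miR-3470b-5p (39.6%) and 59.3% for miR-6236-5p (31.4%), but 6.67% for miR-5126-3p (5.56%) and 8.25% for miR-3473e-5p (6.19%). Depth limits miR-5126-3p, with 90 reads in all, and the cell-line values of both miR-3470 3p arms.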
